A study of Mus musculus with 12 samples.

Results

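The ligands and receptors of the VEGF and angiopoietin families were followed across medulloblastoma (MB) and its progenitor cells: the ligands *Vegfa*, *Vegfb*, *Vegfc*, *Pgf*, *Angpt1* and *Angpt2*, and the receptors *Flt1*, *Kdr*, *Tek* and *Tie1*. These 10 genes were chosen by symbol from the 19057 genes on the array, and where a gene had several probes the one with the highest mean signal stands for it. Each of 12 RNA samples was run on 1 array of the Illumina MouseWG-6 v2.0 BeadChip, a chip that holds several arrays, and which arrays shared a chip is not given in the sources used here. There were 4 *NdpKO;Ptch+/-* MBs on a mixed strain background, 4 *Ptch+/-* MBs on C57Bl/6 and 4 preparations of granule neuron progenitors (GNPs) from wild-type C57Bl/6 mice at postnatal day 6. The mice of both tumor groups carried 1 disrupted allele of *Ptch*, the receptor that holds Sonic hedgehog signalling in check. Whether the tumors kept the other *Ptch* allele was not tested here. Mice of the first group also lacked *Ndp*, which encodes Norrin, a ligand of the endothelial receptor Frizzled4. The *Ndp* deletion is in the germ line and on the X chromosome, so it is not limited to 1 cell type. Per the methods, mice of the *NdpKO;Ptch+/-* genotype were all male, whereas control mice were of both sexes. Where the groups differ in sex, its effect and that of genotype cannot be told apart. Tumors were taken from mice with symptoms, at ages that the labels do not state, whereas GNPs were purified by percoll gradient and pre-plating. The methods describe controls drawn from the same breeding cohort, but the labels of these arrays give the tumor genotypes different strain backgrounds, and as labelled the effects of background and genotype cannot be told apart. The labels do not say that each sample came from a different mouse, and p-values here cover only the spread between the samples given.

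VEGF-A drives endothelial growth and permeability mainly through VEGFR2, the product of *Kdr*. VEGFR1, encoded by *Flt1*, binds VEGF-A tightly but signals weakly, and it is the receptor for VEGF-B and PlGF, while VEGF-C acts mainly on the lymphatic receptor VEGFR3. Angiopoietin-1, made largely by perivascular and other non-endothelial cells, activates TIE2 (the product of *Tek*) and steadies vessels, angiopoietin-2 is released by activated endothelium and can oppose it, and TIE1 is a co-receptor of TIE2. In the cerebellum these signals act on vessels whose barrier depends on Norrin and Frizzled4.

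Values are normalized log2 signals, on which a difference of 1 is a doubling. They ran from 4.09 to 16.0, every array had a median of 4.15, and 4.5 was used as the limit of background. Between 31.8% and 32.5% of probes reached that limit on an array, and 8922 genes (46.8%) reached it on at least 4 arrays. Pearson's r between arrays of 1 group was 0.984 to 0.996, across probes, which are not independent. *Ndp* itself gave no signal above background on any array, at 4.12 to 4.16 in *NdpKO;Ptch+/-* MBs, 4.14 to 4.21 in *Ptch+/-* MBs and 4.14 to 4.21 in the GNPs, so it does not check the genotype. Of 8 granule lineage markers 7 were measurable, at a mean of 10.43 ± 0.05 in *NdpKO;Ptch+/-* MBs, 10.33 ± 0.20 in *Ptch+/-* MBs and 10.80 ± 0.11 in the GNPs (SD, n = 4 each), while *Atoh1* was under the limit throughout.

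Of the 10 genes, 7 reached the limit on at least 4 arrays. The other 3, *Pgf*, *Kdr* and *Tie1*, stayed under it on every array. The signal of *Kdr* (chr5:75932827-75979072, GRCm38.p6), the main signalling receptor for VEGF-A, was 4.17 to 4.19 in *NdpKO;Ptch+/-* MBs, 4.15 to 4.18 in *Ptch+/-* MBs and 4.15 to 4.20 in the GNPs, and its other probe was as dim. *Tie1* (chr4:118471191-118489849) lay between 4.14 and 4.20 in *NdpKO;Ptch+/-* MBs, 4.14 and 4.22 in *Ptch+/-* MBs and 4.21 and 4.33 in the GNPs. *Pgf* (chr12:85166637-85177785), which encodes PlGF, lay between 4.14 and 4.18 in *NdpKO;Ptch+/-* MBs, 4.14 and 4.20 in *Ptch+/-* MBs and 4.17 and 4.45 in the GNPs. For these 3 genes the array gives no level and no fold change, which does not show that the RNA was missing. A dim probe is not particular to them: *Vegfa*, *Flt1* and *Angpt2* each had 1 further probe, and *Angpt1* had 2, under the limit on all arrays beside the bright one that stands for the gene.

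**Figure D1:**
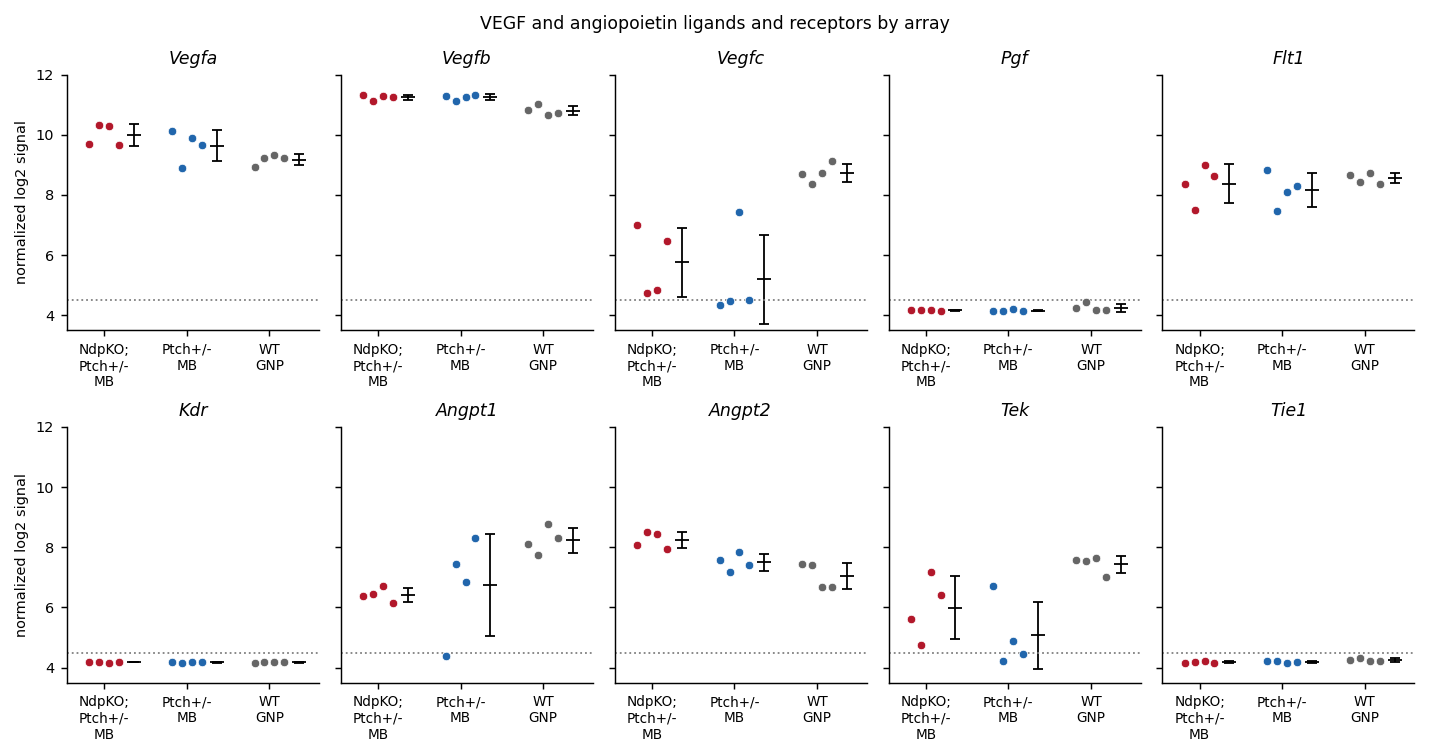
Normalized log2 signal of the 10 genes on each of the 12 arrays (points), with the group mean and SD (bars) and the background limit of 4.5 (dotted line), in *NdpKO;Ptch+/-* MBs, *Ptch+/-* MBs and wild-type (WT) GNPs. *Angpt2* signals of the 4 *NdpKO;Ptch+/-* MBs all lie above those of the other 8 arrays, *Vegfb* is higher in both tumor groups than in GNPs, and *Pgf*, *Kdr* and *Tie1* stay under the limit.

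The first comparison asked whether loss of *Ndp* went with a different angiogenic ligand and receptor profile in established tumors. No gene of the 10 passed an adjusted p of 0.05 in *NdpKO;Ptch+/-* against *Ptch+/-* MBs (limma, Benjamini-Hochberg over 45281 probes), and 1, *Angpt2*, had an unadjusted p under 0.05. In the same comparison 2.07% of all genes passed (0.808% higher and 1.26% lower), and 4.23% of the genes above the limit on at least 4 arrays. Among the 7 measurable genes the median log2 fold change was 0.36, with 5 positive and 2 negative, against a median of 0.02 over all measurable genes.

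*Angpt2* (chr8:18690263-18741562), the angiopoietin of activated and sprouting endothelium, was at 8.07, 8.50, 8.45 and 7.94 in *NdpKO;Ptch+/-* MBs, 7.59, 7.18, 7.83 and 7.40 in *Ptch+/-* MBs and 7.44, 7.40, 6.68 and 6.67 in the GNPs. The lowest *NdpKO;Ptch+/-* MB was above the highest *Ptch+/-* MB and above every GNP sample, whereas *Ptch+/-* MBs overlapped GNPs. Between the tumor genotypes the log2 fold change was 0.74 (SE 0.23, 95% interval 0.22 to 1.26, a 1.67-fold difference), with an adjusted p of 0.188 from limma. The exact permutation test of the same 4 against 4 arrays gave p = 0.0286 (2-sided), the smallest that 70 splits allow. Against GNPs the difference was 1.19 in *NdpKO;Ptch+/-* MBs (SE 0.23, adjusted p = 0.0084 by limma), a call that held under each of 22 alternatives. In *Ptch+/-* MBs against GNPs it was 0.45 (SE 0.23, adjusted p = 0.235).

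RNA of the endothelial markers read here also differed between the tumor genotypes. In bulk RNA a change in the number of endothelial cells and a change in RNA per cell cannot be told apart. Of 20 endothelial markers 19 were on the array and 13 were measurable, and 5 (*Erg*, *Fli1*, *Sox17*, *Clec14a* and *Ushbp1*) were under the limit on all arrays. The mean log2 signal of the 13 was 7.83 to 8.55 in *NdpKO;Ptch+/-* MBs, 7.16 to 7.74 in *Ptch+/-* MBs and 7.70 to 8.20 in the GNPs. The log2 of the summed signal of all 19 was 13.19 to 13.44 in *NdpKO;Ptch+/-* MBs, 12.68 to 13.24 in *Ptch+/-* MBs and 12.76 to 13.24 in the GNPs. In *Ptch+/-* MBs *Cdh5*, *Pecam1*, *Eng* and *Icam2* were each above the limit on 1 of 4 arrays, and *Mmrn2* on 2 of 4. The marker mean, and the differences from it given below, therefore include values under the limit, mostly in *Ptch+/-* MBs. The tumor genotypes did not overlap in the mean, which differed by 0.76 (exact permutation p = 0.0286). The markers were chosen with earlier results of these data known, and the paper had already reported *Emcn* as higher in these tumors. This p is therefore a description and not an independent test of endothelial RNA. Of the 19 markers, 4 were higher in *NdpKO;Ptch+/-* than in *Ptch+/-* MBs: *Mmrn2* (fitted 2.47, 2 of 4 *Ptch+/-* arrays above the limit), *Emcn* (1.95), *Robo4* (0.94) and *Ramp2* (0.72), which encode an endothelial matrix protein, an endothelial sialomucin, a guidance receptor and a calcitonin-receptor partner, and none was lower. The median over the 13 was 0.84, and in this comparison 2.07% of all genes and 4.23% of measurable genes passed.

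The *Angpt2* signal was therefore also set against the marker mean of its own array. This difference was 0.24, 0.47, -0.10 and -0.14 in *NdpKO;Ptch+/-* MBs, -0.15, 0.02, 0.63 and 0.04 in *Ptch+/-* MBs and -0.76, -0.65, -1.24 and -1.03 in GNPs. The tumor genotypes overlapped and differed by -0.02 (exact permutation p = 1). Both tumor groups lay wholly above GNPs, by 1.04 for *NdpKO;Ptch+/-* and by 1.06 for *Ptch+/-* MBs (exact permutation p = 0.0286 each, adjusted p = 0.0571 over 24 such comparisons). Since *Sox18*, an endothelial transcription factor, was itself 3.44 higher in *NdpKO;Ptch+/-* MBs and 3.83 higher in *Ptch+/-* MBs than in GNPs, the mean was also taken without it. *Angpt2* minus this mean differed by -0.12 between the tumor genotypes, by 1.31 between *NdpKO;Ptch+/-* MBs and GNPs and by 1.43 between *Ptch+/-* MBs and GNPs. With the median of the 13 markers in place of their mean, the difference was -0.40 between the tumor genotypes, which still overlapped. In *NdpKO;Ptch+/-* MBs it was then 0.55 above GNPs and the groups overlapped, at -0.62 to 0.07 in *NdpKO;Ptch+/-* MBs and -1.17 to -0.47 in GNPs, while in *Ptch+/-* MBs it was 0.94 above GNPs with no overlap. The position of *Angpt2* relative to endothelial RNA therefore depends on how the markers are summarised. A difference of signals from separate probes compares changes between groups, not levels of genes.

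**Figure D2:**
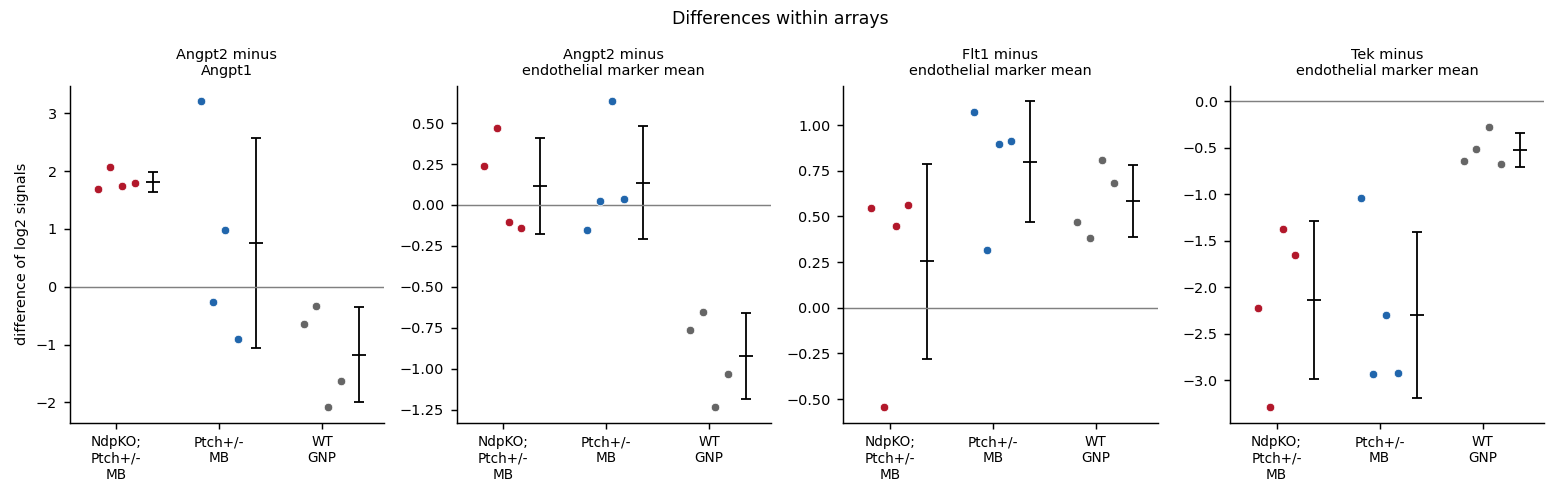
Differences of log2 signals within each array (points), with the group mean and SD (bars), for *Angpt2* minus *Angpt1* and for *Angpt2*, *Flt1* and *Tek* minus the mean of 13 endothelial markers. *Angpt2* minus the marker mean overlaps between the tumor genotypes and lies between -1.24 and -0.65 in GNPs, under all 8 tumors.

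*Angpt1* (chr15:42424667-42676977), the activating ligand of TIE2, was at 6.38, 6.43, 6.71 and 6.15 in *NdpKO;Ptch+/-* MBs, 4.38, 7.44, 6.85 and 8.31 in *Ptch+/-* MBs and 8.09, 7.74, 8.76 and 8.30 in the GNPs. The *NdpKO;Ptch+/-* MBs lay close together (SD 0.23) and within the wide range of the *Ptch+/-* MBs (SD 1.69), of which 1 was under the background limit. The log2 fold change between tumor genotypes was -0.32 (95% interval -1.88 to 1.23, adjusted p = 0.92), so a change of either sign was within reach of the error. Against GNPs it was -1.81 in *NdpKO;Ptch+/-* MBs, with no overlap (SE 0.69, adjusted p = 0.136), and -1.48 in *Ptch+/-* MBs (adjusted p = 0.193). The *Ptch+/-* array under the limit weighs on all of these: without *Ptch+/-* replicate 1 the value was -0.69 in *Ptch+/-* MBs against GNPs and -1.11 between the tumor genotypes, and without *Ptch+/-* replicate 4 the value between the tumor genotypes was 0.20. The spread of the *Ptch+/-* MBs enters the comparison of *NdpKO;Ptch+/-* MBs with GNPs through the shared model: without *Ptch+/-* replicate 1 its adjusted p was 0.0078.

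The balance of the angiopoietins, *Angpt2* minus *Angpt1* within an array, was 1.69, 2.07, 1.74 and 1.79 in *NdpKO;Ptch+/-* MBs, 3.21, -0.26, 0.98 and -0.90 in *Ptch+/-* MBs and -0.65, -0.34, -2.09 and -1.64 in GNPs. All *NdpKO;Ptch+/-* MBs were above all GNP samples, and the *Ptch+/-* MBs spanned both. The value of 3.21 in *Ptch+/-* replicate 1 uses an *Angpt1* signal under the limit and says only that the balance there was at least 3.09. The difference was 3.00 for *NdpKO;Ptch+/-* MBs against GNPs (exact permutation p = 0.0286, adjusted 0.0571), 1.06 against *Ptch+/-* MBs (exact p = 0.314) and 1.93 for *Ptch+/-* MBs against GNPs (exact p = 0.114). Leaving out 1 array at a time moved the value between the tumor genotypes over 0.51 to 1.88 and that of *Ptch+/-* MBs against GNPs over 1.11 to 2.49, each with its extremes without *Ptch+/-* replicates 4 and 1.

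The other comparisons set each tumor genotype against purified GNPs, and they share the GNP arrays. In *NdpKO;Ptch+/-* MBs 2 of the 10 genes, *Vegfb* and *Angpt2*, were higher and 1, *Vegfc*, was lower (limma, adjusted p under 0.05), where 15.7% of all genes and 28.9% of measurable genes passed (7.69% of all genes higher and 7.98% lower). In *Ptch+/-* MBs *Vegfb* was higher and *Vegfc* and *Tek* were lower, where 21.2% of all genes and 38.4% of measurable genes passed (10.3% of all genes higher and 10.9% lower). The median log2 fold change of the 7 measurable genes was -0.18 in *NdpKO;Ptch+/-* MBs (0.04 over all measurable genes) and -0.39 in *Ptch+/-* MBs (-0.01 over all measurable genes). Solid tumors also hold cells that GNP preparations lack or hold in other amounts. Of 9 myeloid markers on the array 5 passed as higher in both tumor groups, and the mean of the 7 measurable ones was 7.98 ± 0.41 in *NdpKO;Ptch+/-* MBs, 8.36 ± 0.51 in *Ptch+/-* MBs and 5.51 ± 0.37 in the GNPs (SD, n = 4 each). The log2 summed signal of all 9 was 10.81 to 11.86 in *NdpKO;Ptch+/-* MBs, 10.86 to 12.16 in *Ptch+/-* MBs and 8.49 to 9.42 in the GNPs. *Itgam* and *Ptprc* were under the limit on all arrays. GNPs in turn held endothelial RNA: of the 19 endothelial markers 3 were higher (*Ramp2*, *Sox18* and *Mmrn2*) and 3 lower (*Cldn5*, *Icam2* and *Sox17*, of which *Sox17* was under the limit throughout) in *NdpKO;Ptch+/-* MBs, with a median of 0.02 over the 13 measurable, and 1 was higher (*Sox18*) and 9 lower in *Ptch+/-* MBs, with a median of -1.04. Of 8 astrocyte and Bergmann glia markers, *Gfap*, *Hopx* and *Slc1a2* were higher in *NdpKO;Ptch+/-* MBs and none was lower, and *Gfap*, *Slc1a2* and *Slc1a3* were higher and *Gja1* lower in *Ptch+/-* MBs. Of 8 fibroblast and meningeal markers, 1 was higher (*Pdgfra*) and 3 lower (*Dcn*, *Col3a1* and *Foxc1*) in *NdpKO;Ptch+/-* MBs, and 2 were higher (*Pdgfra* and *Aldh1a2*) and 2 lower (*Col3a1* and *Foxc1*) in *Ptch+/-* MBs. *Aldh1a2* was under the limit on all arrays and *Foxc1* on all but 1. All 4 measurable ones had a negative value, with none passing, in *NdpKO;Ptch+/-* against *Ptch+/-* MBs. Of 7 choroid plexus markers on the array 1, *Clic6*, passed as higher in both tumor groups and none was lower. *Clic6* averaged 9.38 in *NdpKO;Ptch+/-* MBs, 9.31 in *Ptch+/-* MBs and 6.30 in the GNPs. Another marker of this list, *Ttr*, varied widely within groups, at 4.13 to 11.19 in *NdpKO;Ptch+/-* MBs, 4.14 to 14.79 in *Ptch+/-* MBs and 8.71 to 11.88 in the GNPs. The part of these cells in the differences below was not tested.

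**Figure D3:**
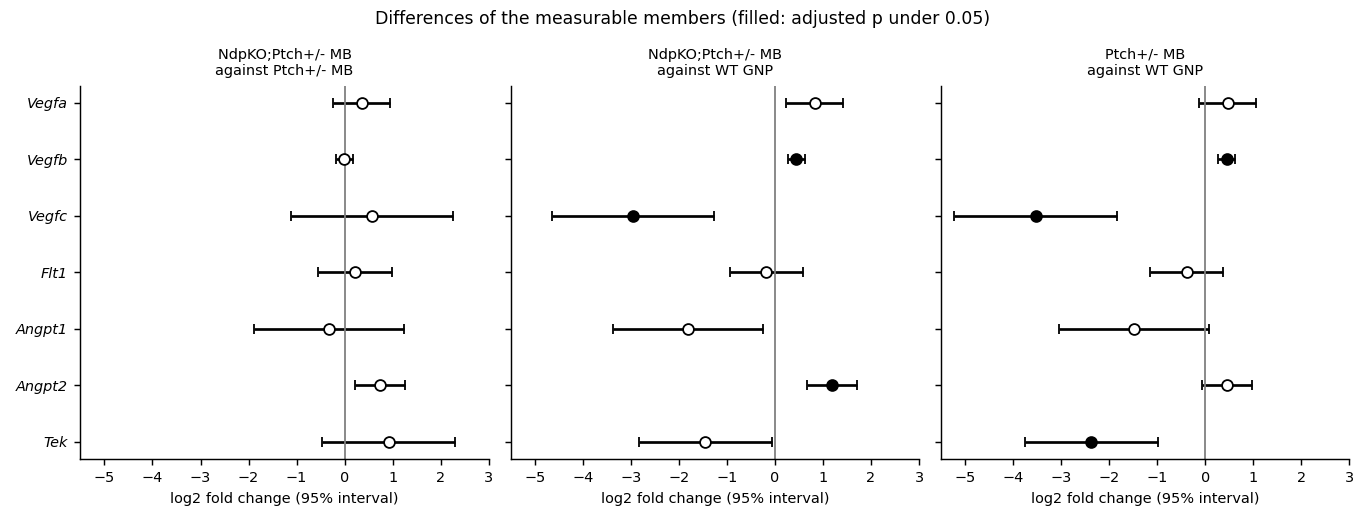
Fitted log2 fold changes (points) with 95% intervals (bars) of the 7 measurable genes in the 3 comparisons, with filled points for an adjusted p under 0.05. No point is filled between the tumor genotypes. *Vegfb* (0.44 in both) and *Vegfc* are filled in both tumor groups against GNPs, *Angpt2* only in the panel of *NdpKO;Ptch+/-* MBs and *Tek* only in that of *Ptch+/-* MBs.

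*Vegfb* (chr19:6982472-6987651), a ligand of VEGFR1 alone among the VEGF receptors, was at 11.31, 11.11, 11.29 and 11.26 in *NdpKO;Ptch+/-* MBs, 11.30, 11.11, 11.27 and 11.31 in *Ptch+/-* MBs and 10.82, 11.01, 10.66 and 10.71 in the GNPs. It had the smallest spread of the measurable genes within each tumor group, and no tumor overlapped GNPs. The difference was 0.44 for both *NdpKO;Ptch+/-* MBs (SE 0.08, adjusted p = 0.0056) and *Ptch+/-* MBs (SE 0.08, adjusted p = 0.0040), and both calls held under each of 22 alternatives. Between the tumor genotypes it was -0.0050 (95% interval -0.18 to 0.17), the narrowest interval among the measurable genes.

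*Vegfc* (chr8:54077532-54186454), the ligand best known for lymphatic vessels, was at 7.00, 4.73, 4.85 and 6.48 in *NdpKO;Ptch+/-* MBs, 4.36, 4.49, 7.42 and 4.49 in *Ptch+/-* MBs and 8.68, 8.38, 8.71 and 9.12 in the GNPs. Every GNP sample was above every tumor, all *NdpKO;Ptch+/-* MBs were above the background limit, and of the *Ptch+/-* MBs only replicate 3 was. The log2 fold change was -2.96 in *NdpKO;Ptch+/-* MBs (SE 0.75, adjusted p = 0.0304) and -3.53 in *Ptch+/-* MBs (SE 0.75, adjusted p = 0.0103). The value in *Ptch+/-* MBs is a fitted one, since 3 arrays lie under the limit, and it was -4.28 without replicate 3. Between the tumor genotypes it was 0.58 (95% interval -1.11 to 2.27, adjusted p = 0.839). The call in *NdpKO;Ptch+/-* MBs was lost without *NdpKO;Ptch+/-* replicate 2 or 3 or without any 1 GNP array, at adjusted p values of 0.0586 to 0.0827.

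*Vegfa* (chr17:46016993-46032377), the main angiogenic factor, was at 9.70, 10.33, 10.30 and 9.66 in *NdpKO;Ptch+/-* MBs, 10.11, 8.90, 9.91 and 9.64 in *Ptch+/-* MBs and 8.93, 9.21, 9.31 and 9.24 in the GNPs. The *NdpKO;Ptch+/-* MBs were all above GNPs, while the lowest *Ptch+/-* MB, replicate 2, was below every GNP sample. The log2 fold change against GNPs was 0.82 in *NdpKO;Ptch+/-* MBs (SE 0.26, adjusted p = 0.0757) and 0.47 in *Ptch+/-* MBs (SE 0.26, adjusted p = 0.287). Without *Ptch+/-* replicate 2 both passed, at 0.82 in *NdpKO;Ptch+/-* MBs (adjusted p = 0.0223) and 0.71 in *Ptch+/-* MBs (adjusted p = 0.0476). Between the tumor genotypes the value was 0.36 (95% interval -0.23 to 0.95, adjusted p = 0.655). A second *Vegfa* probe gave 5.56, 6.92, 6.55 and 5.51 in *NdpKO;Ptch+/-* MBs, 6.80, 4.22, 5.98 and 5.97 in *Ptch+/-* MBs and 4.41, 4.35, 4.38 and 5.06 in the GNPs. On this probe only 1 of 4 GNP arrays and 3 of 4 *Ptch+/-* arrays were above the limit, so its differences are fitted values. The fitted difference from GNPs, 1.59 in *NdpKO;Ptch+/-* MBs (adjusted p = 0.0877) and 1.19 in *Ptch+/-* MBs (adjusted p = 0.168), did not pass either. The probe placed the same *Ptch+/-* MB lowest among the tumors and the same pair of *NdpKO;Ptch+/-* MBs highest within their group. These 2 *NdpKO;Ptch+/-* MBs, replicates 2 and 3, were also the 2 tumors with the highest *Angpt2* signal.

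The hypoxia response, of which *Vegfa* is a classic target, was read from 16 other genes, 12 of them measurable. In *NdpKO;Ptch+/-* against *Ptch+/-* MBs 2 were higher, *Pgk1* (0.66, adjusted p = 0.0458) and *Ldha* (0.58, adjusted p = 0.0311), both enzymes of glycolysis, none was lower, and the median of the 12 was 0.52. In *NdpKO;Ptch+/-* MBs against GNPs 2 were higher (*Ldha* and *P4ha1*) and 2 lower (*Egln1* and *Ndrg1*), with a median of 0.13. In *Ptch+/-* MBs against GNPs none was higher and 4 (*Pgk1*, *Hif1a*, *Ankrd37* and *Ndrg1*) were lower, with a median of -0.23. Between the tumor genotypes 2.07% of all genes and 4.23% of measurable genes passed. Against GNPs 15.7% of all genes and 28.9% of measurable genes passed in *NdpKO;Ptch+/-* MBs. In *Ptch+/-* MBs these shares were 21.2% and 38.4%.

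Of the receptors, *Flt1* (chr5:147561604-147726438) was at 8.38, 7.49, 9.00 and 8.64 in *NdpKO;Ptch+/-* MBs, 8.81, 7.47, 8.09 and 8.28 in *Ptch+/-* MBs and 8.68, 8.44, 8.72 and 8.38 in the GNPs. The 3 groups overlapped, and each tumor group held 1 array near 7.5. The log2 fold change was 0.21 between tumor genotypes (95% interval -0.56 to 0.98, adjusted p = 0.882), -0.18 in *NdpKO;Ptch+/-* MBs against GNPs (-0.95 to 0.59, adjusted p = 0.81) and -0.39 in *Ptch+/-* MBs against GNPs (-1.16 to 0.38, adjusted p = 0.517). Set against the endothelial marker mean, *Flt1* was 0.25 ± 0.53 in *NdpKO;Ptch+/-* MBs, 0.80 ± 0.33 in *Ptch+/-* MBs and 0.59 ± 0.20 in the GNPs (SD, n = 4 each), and the tumor genotypes overlapped (difference -0.55, exact permutation p = 0.114). With the marker median this difference was -0.92, still with overlap, and in *NdpKO;Ptch+/-* MBs against GNPs the value was -0.82 with no overlap, against -0.33 with overlap for the marker mean.

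*Tek* (chr4:94739086-94874976), which encodes TIE2, was at 5.61, 4.74, 7.18 and 6.42 in *NdpKO;Ptch+/-* MBs, 6.70, 4.23, 4.90 and 4.44 in *Ptch+/-* MBs and 7.56, 7.54, 7.64 and 7.02 in the GNPs. *Ptch+/-* MBs lay wholly under GNPs, with 2 of the 4 under the background limit, and in *NdpKO;Ptch+/-* MBs only replicate 3 reached the range of GNPs. The fitted log2 fold change against GNPs was -2.37 in *Ptch+/-* MBs (SE 0.62, adjusted p = 0.0264) and -1.45 in *NdpKO;Ptch+/-* MBs (SE 0.62, adjusted p = 0.179), and between the tumor genotypes it was 0.92 (95% interval -0.46 to 2.31, adjusted p = 0.608). The call in *Ptch+/-* MBs was lost without *Ptch+/-* replicate 2, 3 or 4 or GNP replicate 1, 2 or 3, at adjusted p values of 0.0624 to 0.0703. Relative to the endothelial marker mean *Tek* was -2.13 ± 0.85 in *NdpKO;Ptch+/-* MBs, -2.30 ± 0.89 in *Ptch+/-* MBs and -0.53 ± 0.18 in the GNPs (SD, n = 4 each). All 8 tumors were under all GNP samples on this measure, with differences of -1.60 for *NdpKO;Ptch+/-* MBs and -1.77 for *Ptch+/-* MBs (exact permutation p = 0.0286, adjusted 0.0571 each), and the tumor genotypes differed by 0.16 (exact p = 0.8). With the marker median the tumors still lay under all GNP samples, and the tumor genotypes differed by -0.21. For the 2 *Ptch+/-* arrays with *Tek* under the limit, the measure uses a signal that gives no level, and it is not an exact value. The marker mean of these arrays also holds markers under the limit, such as *Cdh5*.

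The 2 measurable receptors were also compared from tumor to tumor. Over the 8 tumors *Flt1* and *Tek* had a Pearson's r of 0.883 (permutation p = 0.00427) and a Spearman's rho of 0.929 (permutation p = 0.00223). Among 28 relations computed between the 7 genes and the endothelial marker mean, the adjusted values were 0.119 and 0.0625, so neither passed. The r was 0.939 without the 2 tumors farthest from the median *Flt1* signal, and 0.904 once the mean of each genotype was removed. *Tek* was above the background limit in 6 of these 8 tumors, and the order of the other 2, which enters rho, is not a measured one. Against the endothelial marker mean of the array r was 0.771 for *Tek* (permutation p = 0.0302, adjusted 0.169) and 0.549 for *Flt1* (permutation p = 0.161, adjusted 0.545), and the part of endothelial RNA in the relation of *Flt1* and *Tek* was not tested.

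**Figure D4:**
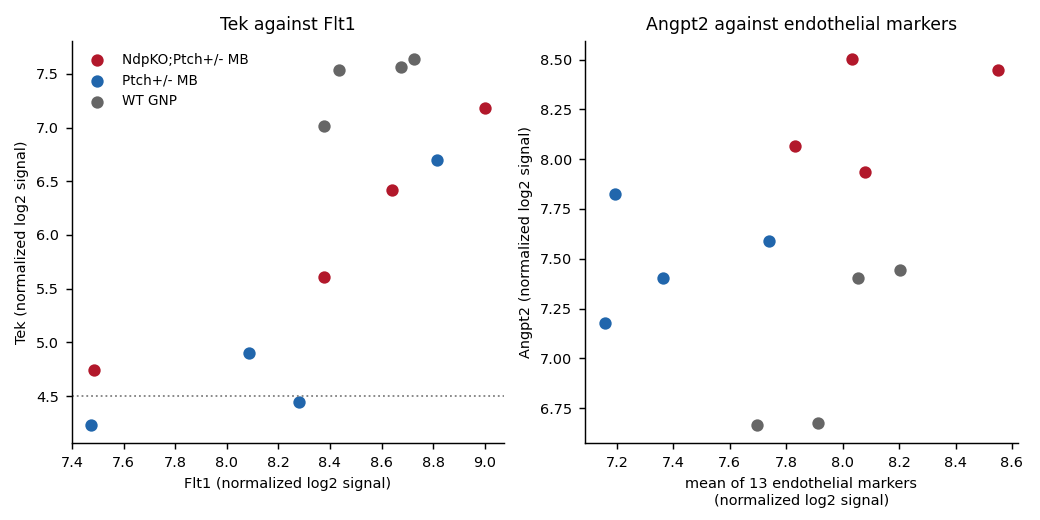
Log2 signals of *Tek* against *Flt1* (left, dotted line at the background limit of 4.5) and of *Angpt2* against the mean of 13 endothelial markers (right), 1 point for each of the 12 arrays. The *NdpKO;Ptch+/-* MB with the lowest *Flt1* signal also has the lowest *Tek* signal of that genotype, and the *Ptch+/-* MB with the lowest *Flt1* signal is 1 of 2 with *Tek* under the limit, while the GNP arrays lie apart at 7.02 to 7.64 for *Tek*. In the right panel GNP arrays have lower *Angpt2* than the *NdpKO;Ptch+/-* MBs at similar marker means.

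As the 2 receptors with a measurable signal, whose values in the tumors had the highest r of the 28 relations, *Flt1* and *Tek* are shown with their promoters, in windows of 250 bases before to 50 after an annotated start (RefSeq, GRCm38.p6, 5′ to 3′ on the gene's strand). *Flt1* is on the minus strand at chr5:147725962-147726261 and *Tek* on the plus strand at chr4:94739039-94739338, and both genes are annotated to begin further upstream as well. Capitals mark the ETS core GGAA (read as TTCC on the opposite strand), the cAMP response element TGACGTCA and the GATA motif AGATAA, each searched on both strands:
Flt1: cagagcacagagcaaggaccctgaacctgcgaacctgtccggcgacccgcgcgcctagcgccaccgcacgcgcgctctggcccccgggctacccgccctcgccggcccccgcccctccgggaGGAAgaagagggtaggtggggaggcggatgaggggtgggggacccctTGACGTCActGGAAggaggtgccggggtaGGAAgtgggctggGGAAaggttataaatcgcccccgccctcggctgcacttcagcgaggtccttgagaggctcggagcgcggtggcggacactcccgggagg
Tek: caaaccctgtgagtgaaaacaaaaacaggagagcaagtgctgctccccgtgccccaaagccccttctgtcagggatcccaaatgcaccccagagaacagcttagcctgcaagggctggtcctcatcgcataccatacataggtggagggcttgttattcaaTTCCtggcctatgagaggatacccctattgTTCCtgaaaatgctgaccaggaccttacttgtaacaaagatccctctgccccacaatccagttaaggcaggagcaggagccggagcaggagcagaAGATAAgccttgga

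The *Flt1* window held 4 GGAA cores, all on the gene's strand, 1 TGACGTCA and 29 CpG dinucleotides, and the *Tek* window held 2 GGAA cores, both on the opposite strand, 1 AGATAA and 3 CpG dinucleotides. GGAA was found in 96.0% of 32851 promoter windows of this length, with a median of 3, so its presence does not set these genes apart. TGACGTCA was found in 1.79% of windows and AGATAA in 11.2%. Of the 10 genes 8 were matched in the promoter table. *Tie1*, whose RNA was under the limit, had 9 GGAA cores and *Kdr* had 5, and *Vegfa* had 6. The hypoxia response core ACGTG, present in 19.6% of windows, was in none of the 8. A match of letters is a description of the window and not a binding site.

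Partners of the 2 pathways were read from a list of 27 symbols, of which 23 were on the array, 9 were measurable and 13 were under the limit on all arrays, among them *Flt4*, which encodes VEGFR3, *Nrp2*, *Dll4* and *Angpt4*. In *NdpKO;Ptch+/-* against *Ptch+/-* MBs, where 2.07% of all genes and 4.23% of measurable genes passed, 1 of the 23 was higher and none lower. It was *Notch4*, an endothelial Notch receptor, at 9.29, 9.36, 9.66 and 9.65 in *NdpKO;Ptch+/-* MBs, 8.99, 8.75, 8.67 and 8.91 in *Ptch+/-* MBs and 8.70, 8.85, 8.84 and 8.91 in the GNPs. The *NdpKO;Ptch+/-* MBs lay above all other arrays, by 0.66 over *Ptch+/-* MBs (SE 0.10, adjusted p = 0.0164) and by 0.67 over GNPs (SE 0.10, adjusted p = 0.0023). The median over the 9 measurable partners was 0.31 between the tumor genotypes.

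Against GNPs, *NdpKO;Ptch+/-* MBs had 2 partners higher, *Notch4* and *Hspg2* (1.13, adjusted p = 0.0374), which encodes the vascular matrix proteoglycan perlecan, and 2 lower. *Ptch+/-* MBs had none higher and 4 lower, among them *Shb*, an adaptor of VEGFR2, at background on every array and so without a fold. Of all genes, 15.7% passed against GNPs in *NdpKO;Ptch+/-* MBs and 21.2% in *Ptch+/-* MBs. *Aplnr*, the apelin receptor of sprouting and venous endothelium, was at 4.23 to 5.22 in *NdpKO;Ptch+/-* MBs, 4.13 to 4.24 in *Ptch+/-* MBs and 6.02 to 7.32 in the GNPs, where no tumor came near the lowest GNP sample. It was lower, with a fitted log2 fold change of -2.27 in *NdpKO;Ptch+/-* MBs (1 of 4 arrays above the limit, adjusted p = 0.00080) and at least 4.81-fold lower in *Ptch+/-* MBs (adjusted p = 0.00027), the bound being taken at the background limit. *Nos3*, the endothelial nitric oxide synthase, was lower, with a fitted log2 fold change of -1.17 in *NdpKO;Ptch+/-* MBs (adjusted p = 0.0188) and -1.09 in *Ptch+/-* MBs (adjusted p = 0.0207), with 1 *NdpKO;Ptch+/-* and 2 *Ptch+/-* arrays above the limit. *Cdh5*, the VE-cadherin gene that is also in the endothelial list, was at 5.17 to 6.29 in *NdpKO;Ptch+/-* MBs, 4.25 to 5.16 in *Ptch+/-* MBs and 5.45 to 7.02 in the GNPs, and it was called lower in *Ptch+/-* MBs alone (-1.74, 1 of 4 arrays above the limit, adjusted p = 0.0104).

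The regulators *Nrp1*, *Ptprb* and *Lrg1* did not pass in any comparison. *Nrp1*, the VEGF co-receptor, averaged 8.59 ± 0.29 in *NdpKO;Ptch+/-* MBs, 8.55 ± 0.46 in *Ptch+/-* MBs and 7.92 ± 0.22 in the GNPs (SD, n = 4 each), with an adjusted p against GNPs of 0.104 for *NdpKO;Ptch+/-* and 0.102 for *Ptch+/-* MBs. *Ptprb*, the phosphatase that restrains TIE2, averaged 6.70 ± 0.36 in *NdpKO;Ptch+/-* MBs, 6.06 ± 0.41 in *Ptch+/-* MBs and 6.38 ± 0.35 in the GNPs (SD, n = 4 each), and the tumor genotypes differed by 0.64 (adjusted p = 0.311). *Lrg1*, a secreted regulator of vessel growth, was above the limit in 3 of 4 *Ptch+/-* MBs, at 5.34, 5.17 and 7.09, and under it in every *NdpKO;Ptch+/-* MB and GNP sample (adjusted p = 0.243 between the tumor genotypes and 0.0804 for *Ptch+/-* MBs against GNPs).

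**Figure D5:**
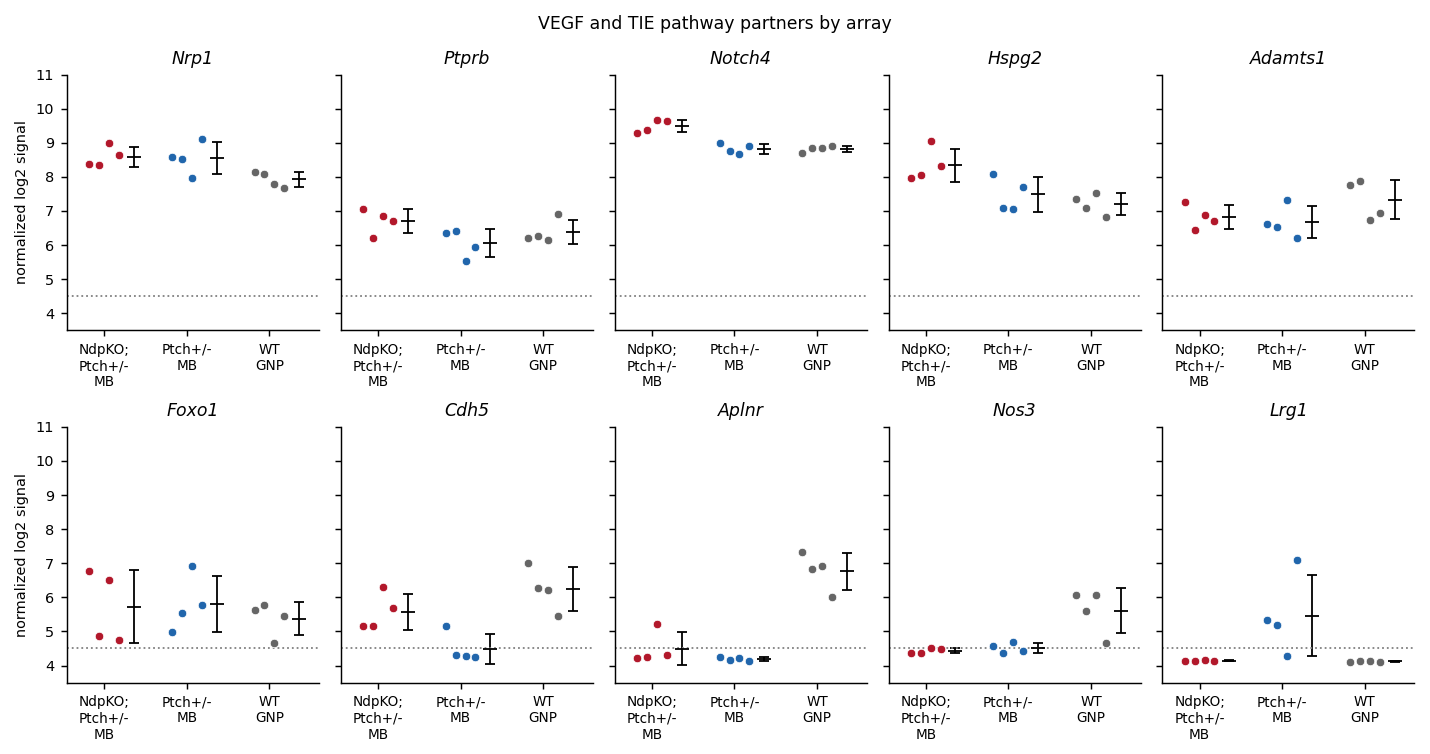
Normalized log2 signal of 10 VEGF and TIE pathway partners on each of the 12 arrays (points), with the group mean and SD (bars) and the background limit of 4.5 (dotted line). *Notch4* is highest in the 4 *NdpKO;Ptch+/-* MBs, *Aplnr* lies at 6.02 to 7.32 in GNPs and at 4.13 to 5.22 in the 8 tumors, and *Lrg1* is above the limit in 3 *Ptch+/-* MBs.

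For the lists that follow, 2.07% of all genes and 4.23% of measurable genes passed in *NdpKO;Ptch+/-* against *Ptch+/-* MBs. Among genes of sprouting endothelium, 2 of 10 were higher in *NdpKO;Ptch+/-* than in *Ptch+/-* MBs and none was lower. They were *Esm1*, a proteoglycan gene of tip cells (fitted 4.18, 1 of 4 *Ptch+/-* arrays above the limit, adjusted p = 0.0124), and *Nid2*, a basement membrane gene (fitted 2.16, 1 of 4 above, adjusted p = 0.0277). The median over the 8 measurable genes was 1.12. Of 12 pericyte and smooth muscle markers, the cells in which *Angpt1* is best known, 1 was higher, *Vtn* (0.90, adjusted p = 0.0427), and the mean of the 5 measurable ones was 7.32 to 8.15 in *NdpKO;Ptch+/-* MBs, 6.44 to 7.17 in *Ptch+/-* MBs and 6.80 to 7.28 in the GNPs. *Pdgfrb*, *Tagln*, *Des*, *Myh11* and *Anpep* were under the limit on all arrays, and the part of these cells in the *Angpt1* and *Angpt2* values was not tested.

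The genes most like each member across the tumors were looked for among 7654 genes above the limit in all 8 tumors. By Pearson's r over the 8 tumors, as a description, *Vegfa* was closest to *Tmem260* (0.965), *Zfp24* and *Cep43*, *Vegfb* to *Bcl7a* (0.969), *Trim26* and *Cbfa2t3*, *Flt1* to *Zbtb5* (0.962), *Ttc17* and *Lpin1*, and *Angpt2* to *Pnrc2* (0.983), *Rpl9* and *Vps36*. Of the 10 ligands and receptors only *Vegfa*, *Vegfb*, *Flt1* and *Angpt2* were above the limit in all 8 tumors, so the others could not appear. None of those that could is among the genes listed as closest to another.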

How the data were processed

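Total RNA from 12 samples in 3 groups of 4 was hybridized by the authors to Illumina MouseWG-6 v2.0 BeadChips. Per the methods, the authors read the chips with BeadStudio and processed them with neqc, a limma routine that corrects background by the negative controls, adds an offset, normalizes quantiles and takes logs. The deposited values are on this log2 scale, so a difference in general level between arrays cannot be seen. The version of limma and the chip of each array are not given in the sources used here, and no batch could be tested. The number of arrays limits the precision.

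Of 45281 probes 34885 had 1 symbol in the platform annotation, 18 several and 10378 none. Groups were compared in R 4.3.3 with limma 3.58.1 (lmFit and eBayes, a group-means model over 12 arrays, Benjamini-Hochberg over all probes, threshold 0.05), which was tested on simulated data, and with 2-sided exact permutation tests (Python 3.11.15, SciPy 1.17.1). A log2 signal of 4.5 served as the background limit. An "at least" fold sets the brighter group's mean against that limit where every array of the dimmer group lies under it. The 10 genes, the lists, the limit and the tests were chosen with earlier results of these data known. Genes named are the 10 members and their other probes; of each list those that passed in the comparison described, and up to 4 with the smallest p; for members above the limit in all tumors the 3 genes with the highest r; and *Ndp*. Genes outside this rule (*Nrp1*, *Ptprb*, *Lrg1*, *Ttr* and those given as under the limit) were named after their values were seen. Alternatives tried were dim probes left out, median centring, quantile normalization a second time, array weights, a robust prior with an intensity trend, the groups compared alone, the replicate number as a block, averaged probes, a threshold of 0.01, each array left out in turn, and the marker median; dim probes left out together with the groups compared alone, and the marker mean without *Sox18*, were chosen after seeing the data. Promoter sequences and gene positions are from RefSeq (GRCm38.p6), and the position of each probe within its gene was not used here.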

Additional observations from a re-analysis of the deposited data

Results flagged for a closer look

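Among 60 groups of 4 values examined, 4 held 1 array whose gap to its nearest neighbour took most of the group's range (above Dixon's critical value for 4 values), and chance flags about 1 group in 20. *Vegfc* was at 7.42 in *Ptch+/-* MB replicate 3, with the other 3 *Ptch+/-* MBs between 4.36 and 4.49. *Tek* was at 7.02 in GNP replicate 4, against 7.54 to 7.64 in the other 3 GNP samples. *Flt1* minus the endothelial marker mean was -0.54 in *NdpKO;Ptch+/-* MB replicate 2, where the other 3 *NdpKO;Ptch+/-* MBs had 0.45 to 0.56. The second *Vegfa* probe was at 5.06 in GNP replicate 4 and at 4.35 to 4.41 in the other 3 GNP samples.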

How the results depend on the processing

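No member passed between the tumor genotypes under any alternative, and no call changed sign. The 3 members changed in *NdpKO;Ptch+/-* MBs against GNPs became 5 with dim probes left out (fewer probes to adjust over) and 5 in a fit of the groups compared alone, in both cases with *Vegfa* and *Angpt1* added, and 6, with *Tek* also, with both choices together, a combination chosen after seeing the data. The 3 members changed in *Ptch+/-* MBs against GNPs became 1, *Vegfb*, at a threshold of 0.01. Leaving out each array in turn gave 0 to 0 members between the tumor genotypes, 2 to 4 in *NdpKO;Ptch+/-* MBs against GNPs and 2 to 3 in *Ptch+/-* MBs against GNPs. *Angpt2* in *NdpKO;Ptch+/-* MBs and *Vegfb* in both tumor groups passed against GNPs under all 22 alternatives, *Vegfc* under 14 in *NdpKO;Ptch+/-* and 21 in *Ptch+/-* MBs, and *Tek* under 15 in *Ptch+/-* MBs. Samples with the same replicate number did not deviate together (12 pairs, r -0.19 to 0.12, and 3 of 24 best matches with the own number), and with the number as a replicate block 0 members passed between the tumor genotypes, 2 in *NdpKO;Ptch+/-* MBs against GNPs (*Vegfc* lost) and 3 in *Ptch+/-* MBs against GNPs. With the median of the endothelial markers in place of their mean, *Angpt2* minus the markers overlapped between *NdpKO;Ptch+/-* MBs and GNPs, and *Flt1* minus the markers no longer did. Over the log2 fold changes of the members under the alternatives, 604 values kept their direction and their side of the threshold. Another 11 passed only under the alternative, 16 no longer passed and 11 changed sign without passing in either fit. Signals near background limit *Vegfc* and *Tek* in the tumors, and *Pgf*, *Kdr* and *Tie1* throughout.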
